A study of Mus musculus with 9 samples.

Results

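The NRF2 antioxidant genes described here are 10 genes, Slc7a11, Gclm, Gclc, Nqo1, Txnrd1, Srxn1, Prdx1, Gsr, Sqstm1 and Nfe2l2. They were taken by symbol from a table of 55906 genes, in which all 10 were found. Their expression was measured by RNA sequencing in 9 libraries of BV2, a microglial line from the mouse that the labels call wildtype. The 3 Control libraries came from cells with no treatment named, the 3 LPS libraries from cells given lipopolysaccharide, the bacterial cell wall component sensed by TLR4, and the 3 LPS+Pilo libraries from cells given LPS and a treatment labelled Pilo. The sources used here give neither the meaning of Pilo nor the dose, duration or vehicle of any treatment. All groups share 1 cell line. The titles call the libraries of a group biological replicates without saying what was replicated. The p-values set differences against a spread between libraries, which may be technical if the libraries did not come from separate cultures.

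NRF2, the protein encoded by Nfe2l2, is a transcription factor that pairs with a small MAF protein and binds antioxidant response elements (AREs) near its target genes. In unstressed cells KEAP1 holds NRF2 and hands it to the CUL3 ubiquitin ligase for degradation, and oxidants or electrophiles that modify KEAP1 let NRF2 accumulate, so that its activity is set largely by protein stability. The targets supply cystine, glutathione, thioredoxin and peroxiredoxin activity, which detoxify the peroxides that activated microglia make.

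Values are TPM, the usual length-scaled unit of transcript abundance, which sum to the same total in each library and can be compared between genes, and the read depth behind them is unknown. The microglia and macrophage marker gene Cd68 lay between 976 and 1219 TPM, whereas Aif1, which encodes the microglial marker IBA1, lay between 0.07 and 1.36 TPM. The summed level of 8 microglia and macrophage markers was 3412 to 3512 TPM in Control libraries, 2995 to 3096 TPM with LPS and 2807 to 2867 TPM with LPS+Pilo, and its part in the results was not tested. The markers did not move together: Tyrobp was 1191.6 ± 90.2, 839 ± 35.6 and 691 ± 30.9 TPM in the 3 groups, whereas Itgam rose from 10.9 ± 3.0 TPM to 35.4 ± 12.1 with LPS and stood at 30.3 ± 2.45 with LPS+Pilo. In limma, at a Benjamini-Hochberg adjusted p under 0.05 over 11260 genes, 1 of the 8 rose (Itgam) and 1 fell (Tyrobp) with LPS. Of all genes tested, 4.12% rose and 3.64% fell there. In LPS+Pilo against Control 1 of the 8 rose (Itgam) and 2 fell (Tyrobp and Csf1r), where 4.85% and 5.3% of all genes did. A second list held 13 genes that mark neurons, glia and further lineages: 12 had means below 0.1 TPM, and 7 were listed at 0 in each library. The exception was Mbp, a myelin gene, at 3.94 to 6.57 TPM. Libraries stood apart within groups: on the second principal component of all tested genes (22% of variance), Control replicate 1 lay at 33.99 and LPS replicate 3 at -21.46. Control replicate 1 was the highest of its group for 62.6% of all tested genes and LPS replicate 3 the lowest of its group for 66.3%.

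Of the 10 genes, 9 were tested. Nqo1 stayed below the limit of 1 TPM in at least 3 libraries. With LPS, 2 of the 9 rose and 0 fell in limma at a Benjamini-Hochberg adjusted p under 0.05 over 11260 genes. Of all genes tested, 4.12% rose and 3.64% fell, 7.76% together (464 and 410 genes, or 614 and 902 under quantile normalization). The 2 were Slc7a11 and Gsr, and both were also higher in LPS+Pilo than in Control, where again 2 of 9 rose and 0 fell (4.85% and 5.3% of all genes, 10.2% together). Between LPS+Pilo and LPS, 0 of 9 passed in limma, where 0.00888% of all genes were higher and 0.0355% lower, 0.0444% together, and 1 of the 9 had an unadjusted p under 0.05.

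**Figure D1:**
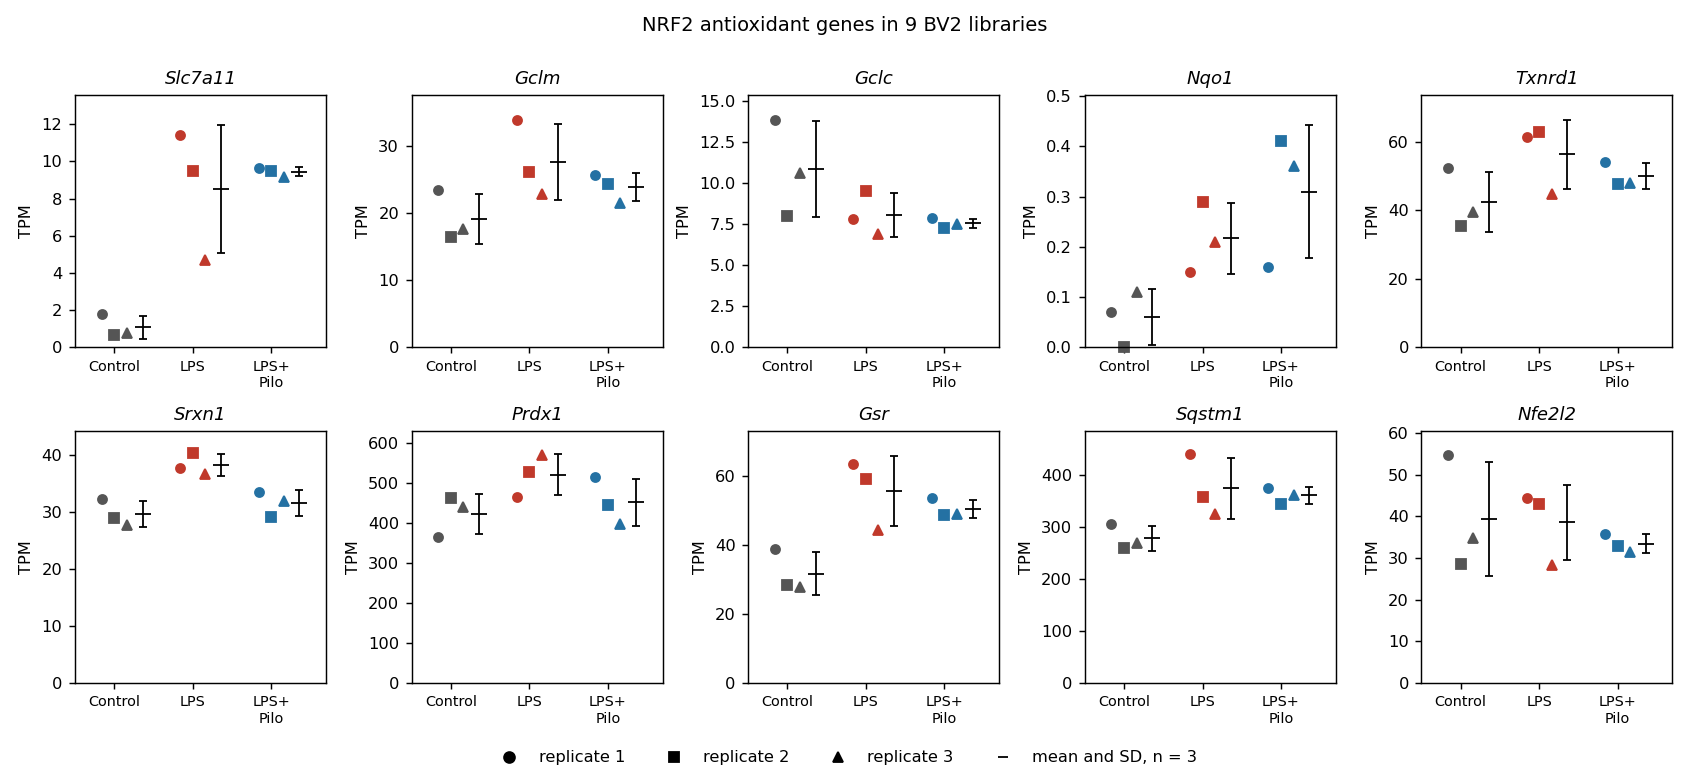
TPM (vertical axes, starting at 0) of each of the 10 genes in every library, grouped as Control, LPS and LPS+Pilo; symbols mark replicates and the black bars give the mean and SD of 3 libraries. Slc7a11, Gsr and Sqstm1 were higher in every treated library than in any Control library, Gclc had its highest mean in Control, and Nqo1 stayed below 0.5 TPM. Of all genes tested, 11.2% lay above Control without overlap with LPS and 14.9% with LPS+Pilo.

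Slc7a11 encodes xCT, the transporter subunit that brings in cystine for glutathione synthesis. Its level was 1.79, 0.66 and 0.78 TPM in Control replicates 1 to 3, 11.4, 9.48 and 4.71 TPM in LPS and 9.63, 9.51 and 9.17 TPM in LPS+Pilo. All 6 treated libraries were above all Control libraries, as for 11.2% of all genes with LPS and 14.9% with LPS+Pilo. The LPS+Pilo libraries lay within the range of LPS. The rise with LPS was 2.16 ± 0.29 on the log2(TPM + 1) scale (SE; limma adjusted p = 0.00195) and that of LPS+Pilo over Control 2.37 ± 0.29 (adjusted p = 0.000937). Slc7a11 kept both calls in all 16 alternative settings, with 1.94 to 2.90 for LPS and 2.23 to 3.14 for LPS+Pilo. It reached 1 TPM in 7 libraries, of which 1 was a Control, so it entered the test through the groups in which it was high. In bulk RNA a change in the number of expressing cells and a change in RNA per cell cannot be told apart.

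LPS+Pilo and LPS differed by 0.20 for Slc7a11, with a 95% interval of -0.45 to 0.86 (adjusted p = 0.928). The direction turned without LPS replicate 3, the lowest LPS library, to -0.13. The partner chain of xCT, encoded by Slc3a2, was far more abundant, at 213 ± 9.69 TPM in Control libraries, 281 ± 35.0 with LPS and 321 ± 8.27 with LPS+Pilo (mean ± SD, n = 3). Slc3a2 rose by 0.39 with LPS (limma adjusted p = 0.0383) and by 0.59 in LPS+Pilo against Control (adjusted p = 0.00468). All LPS+Pilo libraries were above all LPS libraries, as for 5.58% of all genes (0.20, adjusted p = 0.764). The call of Slc3a2 with LPS was lost in 11 of 16 alternatives. Adjusted p was 0.0535, 0.123 and 0.1 without Control replicates 1, 2 and 3, 0.117 and 0.143 without LPS replicates 1 and 2, and 0.0613, 0.0625 and 0.0632 without LPS+Pilo replicates 1, 2 and 3, over a range of 0.00778 to 0.143. The ratio of Slc7a11 to Slc3a2, computed after the values had been seen, was 0.00502 ± 0.0028 in Control libraries, 0.0296 ± 0.00905 with LPS and 0.0294 ± 0.00141 with LPS+Pilo.

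The genes whose pattern over the 9 libraries was most like that of Slc7a11 were Rac2 and Osm (Pearson correlation 0.993 each), Cd14 (0.993), Ccl5 (0.991) and Slc25a25 (0.991), out of 7530 genes with a symbol and a mean of at least 5 TPM. Rac2 encodes a small GTPase of the phagocyte oxidase, Osm the cytokine oncostatin M, Cd14 an LPS co-receptor, Ccl5 a chemokine and Slc25a25 a mitochondrial carrier. The points share the groups and the library differences described above, so the correlations are a description. Among the 9 tested genes themselves, Gsr was the closest to Slc7a11 (0.96).

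Promoter windows of 300 bases, from 250 before to 50 after the start site, were found in the RefSeq table (build GRCm38.p6) for 8 of the 10 genes, in 10 windows. The bases before the start are shown for Slc7a11, the gene with the largest rise, and for 3 genes with matches to AREs. In Slc7a11 the capitals mark TGATGCAA on either strand, the core of the C/EBP-ATF element through which ATF4 acts in amino acid shortage. In the others they mark TGACNNNGC, the core ARE, or the form TGAGNNNGC, on either strand. The TGAGNNNGC match of Slc7a11 is left in lower case. The core ARE of Srxn1 and the TGAGNNNGC match of Prdx1 lie after the start site and are not shown.
Slc7a11, chr3:50443614-50443863, minus strand: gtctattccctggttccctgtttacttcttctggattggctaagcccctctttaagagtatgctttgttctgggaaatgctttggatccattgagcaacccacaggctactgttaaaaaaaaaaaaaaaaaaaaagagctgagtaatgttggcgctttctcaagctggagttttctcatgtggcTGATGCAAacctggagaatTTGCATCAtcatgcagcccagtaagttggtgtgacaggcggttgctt
Gclm, chr3:122245307-122245556, plus strand: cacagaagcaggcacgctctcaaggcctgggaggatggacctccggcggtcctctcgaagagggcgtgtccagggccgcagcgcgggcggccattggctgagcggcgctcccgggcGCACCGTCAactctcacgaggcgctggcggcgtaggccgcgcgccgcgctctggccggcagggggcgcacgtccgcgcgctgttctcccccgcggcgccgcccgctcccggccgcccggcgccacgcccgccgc
Srxn1, chr2:152105274-152105523, plus strand: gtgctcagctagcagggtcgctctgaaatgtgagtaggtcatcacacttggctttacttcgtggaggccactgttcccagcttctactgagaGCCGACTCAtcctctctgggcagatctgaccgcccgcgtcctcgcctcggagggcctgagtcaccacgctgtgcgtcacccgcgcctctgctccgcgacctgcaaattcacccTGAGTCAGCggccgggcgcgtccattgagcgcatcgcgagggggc
Prdx1, chr4:116685349-116685598, plus strand: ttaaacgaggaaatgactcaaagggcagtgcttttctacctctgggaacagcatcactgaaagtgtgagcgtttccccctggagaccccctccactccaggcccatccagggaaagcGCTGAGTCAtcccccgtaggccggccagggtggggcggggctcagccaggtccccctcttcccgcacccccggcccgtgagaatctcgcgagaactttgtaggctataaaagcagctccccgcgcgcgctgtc

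The Slc7a11 window held 2 matches to TGATGCAA, which begin 66 and 47 bases before the start site. At least 1 such match was present in 0.895% of 32851 windows, and 2 or more in 2 windows. The other 9 windows of these genes held none, and the Slc7a11 window held no TGACNNNGC and 1 TGAGNNNGC. The core ARE was found in 5 windows of 5 genes (Gclm, Txnrd1, Srxn1, Prdx1 and Nfe2l2) and in 12.4% of all windows, and the TGAGNNNGC form in 3 windows (Slc7a11, Srxn1 and Prdx1) and in 17.6% of all. AP-1 sites, TGANTCA, bind FOS and JUN proteins and can overlap AREs. They were found in the Srxn1 and Prdx1 windows and in 7.81% of all, and in each of these genes 1 AP-1 match lay within an ARE match. A match describes the letters of the window, not binding. The table of expression names the build GRCm39 in its processing notes and holds no coordinates.

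**Figure D2:**
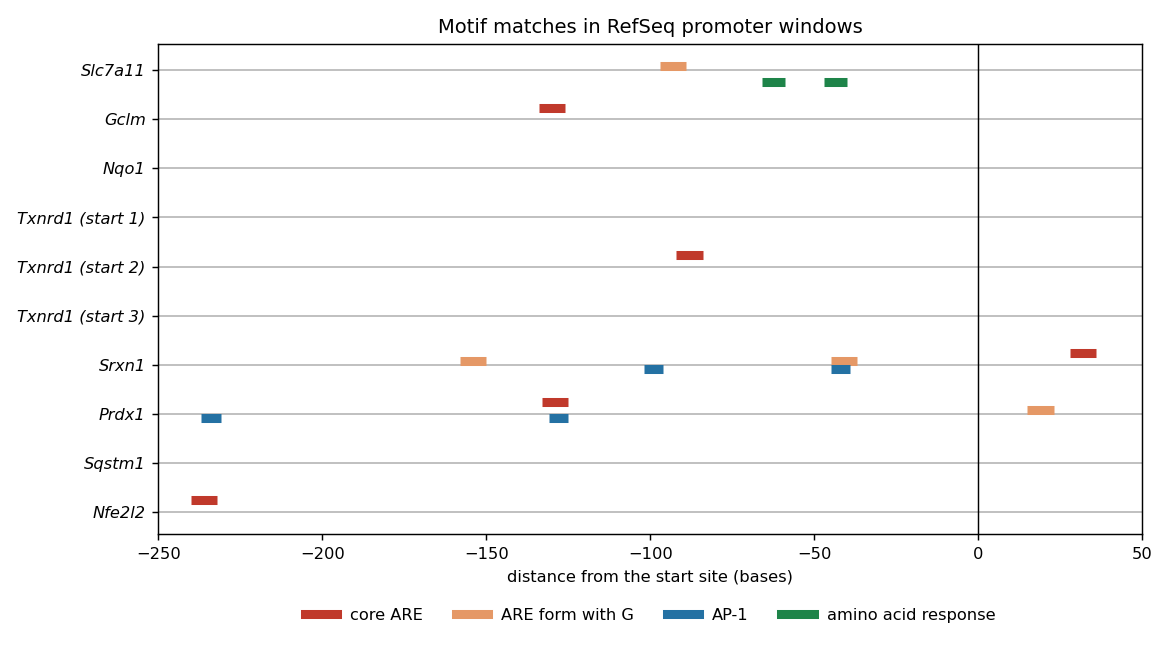
Positions of matches to the core ARE, its form with G, AP-1 and the amino acid response motif (coloured bars) along 10 RefSeq promoter windows, against distance from the start site in bases. The 2 amino acid response matches lay in Slc7a11, and in Srxn1 and Prdx1 an AP-1 match lay within an ARE match.

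Gclc and Gclm encode the catalytic and the modifier subunit of glutamate-cysteine ligase, the rate-limiting enzyme of glutathione synthesis. Gclm stood at 23.48, 16.49 and 17.69 TPM in Control libraries, 33.92, 26.18 and 22.85 TPM with LPS and 25.71, 24.44 and 21.57 TPM with LPS+Pilo. The highest Control library, replicate 1, was above the lowest LPS library, replicate 3, and the difference of 0.50 ± 0.17 did not pass (limma adjusted p = 0.117). Gclm passed without Control replicate 1 (adjusted p = 0.0421) and with a replicate block (0.0446), over a range of 0.0421 to 0.315 in the alternatives. Gclc stood at 13.88, 8.03 and 10.66 TPM in Control libraries, 7.86, 9.55 and 6.90 TPM with LPS and 7.87, 7.30 and 7.51 TPM with LPS+Pilo. All LPS+Pilo libraries were below all Control libraries, as for 15.6% of all genes, while LPS and Control overlapped. The differences of Gclc were -0.36 ± 0.19 for LPS and -0.44 ± 0.19 for LPS+Pilo against Control (adjusted p = 0.289 and 0.191). Under quantile normalization both passed (0.0255 and 0.0214), and under median-of-ratios scaling the second did (0.041).

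Within each library, the level of Gclm was 1.69, 2.05 and 1.66 times that of Gclc in Control, 4.32, 2.74 and 3.31 times in LPS and 3.27, 3.35 and 2.87 times in LPS+Pilo. Neither treated group overlapped Control, and the treated groups overlapped each other. This ratio was computed after the values had been seen. A two-sided exact permutation test gave p = 0.1 for each treated group against Control, the smallest value that 3 against 3 libraries can give, and p = 0.8 for LPS+Pilo against LPS.

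**Figure D3:**
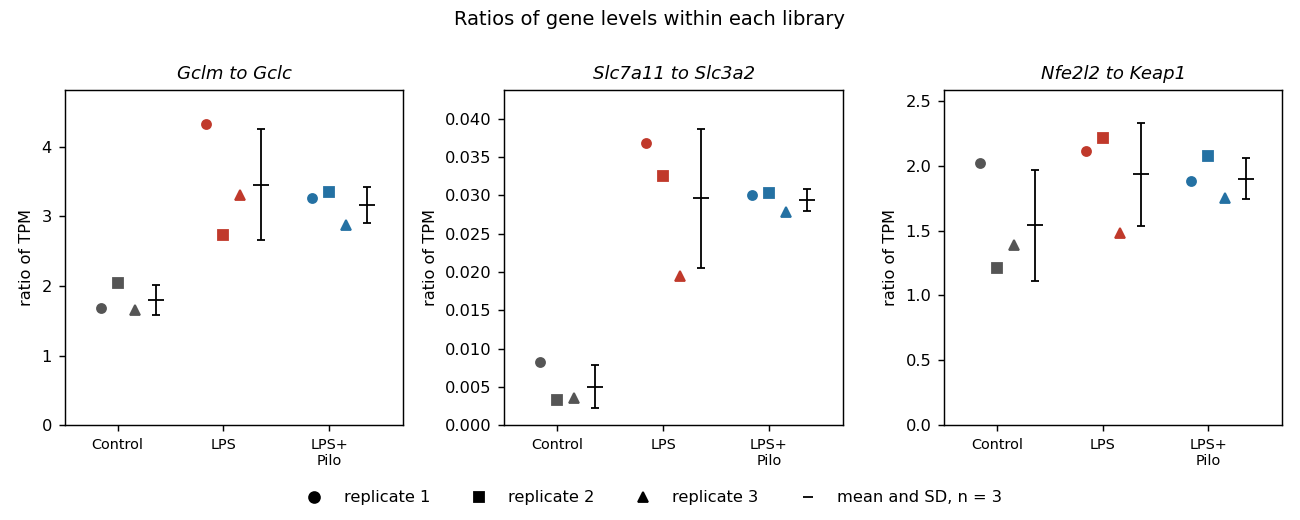
Ratios of TPM (vertical axes, starting at 0) of Gclm to Gclc, Slc7a11 to Slc3a2 and Nfe2l2 to Keap1 in each library; symbols mark replicates and black bars the mean and SD of 3 libraries. For Gclm to Gclc the Control libraries lay between 1.66 and 2.05 and the treated libraries between 2.74 and 4.32, whereas Nfe2l2 to Keap1 overlapped between all groups.

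Gsr encodes glutathione reductase, which uses NADPH to return oxidized glutathione to its reduced form. Its level was 38.73, 28.32 and 27.75 TPM in Control libraries, 63.48, 58.99 and 44.28 TPM with LPS and 53.43, 48.55 and 49.05 TPM with LPS+Pilo. Every treated library was above every Control library, as for 11.2% of all genes with LPS and 14.9% with LPS+Pilo. Gsr rose by 0.80 ± 0.16 with LPS (limma adjusted p = 0.0162) and by 0.67 ± 0.16 in LPS+Pilo against Control (adjusted p = 0.0275). LPS+Pilo and LPS differed by -0.13, with a 95% interval of -0.49 to 0.24. The call with LPS was lost in 5 of 16 alternatives (range of adjusted p 0.00204 to 0.0736), while the difference stayed at 0.69 to 0.95. Adjusted p was 0.0570 and 0.0736 without Control replicates 2 and 3, and 0.0640 and 0.0678 without LPS replicates 1 and 2. It was 0.0586 with only the 2 groups compared. Leaving out those libraries also took the calls over all genes from 874 to 552, 414, 507 and 466. The call of LPS+Pilo against Control was lost without Control replicate 2 (0.0815) or 3 (0.108) or LPS+Pilo replicate 1 (0.0982), 2 (0.0774) or 3 (0.0781). It was also lost with no filter on low values (0.0684), over a range of 0.00289 to 0.108.

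Txnrd1, Srxn1 and Prdx1 serve the thioredoxin and peroxiredoxin arm: thioredoxin reductase recharges thioredoxin, peroxiredoxin reduces peroxides and sulfiredoxin rescues overoxidized peroxiredoxin. Prdx1 was the most abundant of the 10 genes, with means of 422 ± 50.7 TPM in Control libraries, 522 ± 52.5 with LPS and 452 ± 59.1 with LPS+Pilo. Its levels were 365, 463 and 439 TPM in Control libraries, 466, 528 and 571 TPM with LPS and 515, 444 and 398 TPM with LPS+Pilo. LPS lay just above Control without overlap, as for 11.2% of all genes, and LPS+Pilo spanned both. The difference of LPS from Control was 0.31 ± 0.13 (limma adjusted p = 0.188).

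Srxn1 was 32.12, 28.85 and 27.68 TPM in Control libraries, 37.58, 40.25 and 36.58 TPM with LPS and 33.43, 29.03 and 31.92 TPM with LPS+Pilo. All LPS libraries were above all libraries of both other groups. Against Control this was so for 11.2% of all genes. Srxn1 differed by 0.36 ± 0.10 between LPS and Control (limma adjusted p = 0.0574), and it passed without Control replicate 1 (0.0404), under quantile normalization (0.0398) and with a filter at 5 TPM (0.0474), over a range of 0.0398 to 0.219. Between LPS+Pilo and LPS the difference was -0.27 ± 0.10, with a 95% interval of -0.49 to -0.05. Its unadjusted p was 0.021 and its adjusted p 0.598. Groups failed to overlap in this direction for 6.63% of all genes.

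Txnrd1 stood at 52.20, 35.35 and 39.52 TPM in Control libraries, 61.49, 62.82 and 44.66 TPM with LPS and 54.22, 47.69 and 47.86 TPM with LPS+Pilo. LPS and Control overlapped through Control replicate 1 and LPS replicate 3, and the difference was 0.41 ± 0.17 (limma adjusted p = 0.188). It passed in none of the 16 alternatives, with adjusted p from 0.0522 to 0.463.

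Sqstm1 encodes p62, an autophagy receptor that also binds KEAP1 and so releases NRF2. It was expressed at 305, 260 and 268 TPM in Control libraries, 439, 357 and 325 TPM with LPS and 375, 344 and 361 TPM with LPS+Pilo. All 6 treated libraries were above all Control libraries, as for 11.2% of all genes with LPS and 14.9% with LPS+Pilo. Neither difference passed: 0.42 ± 0.12 for LPS (limma adjusted p = 0.0588) and 0.38 ± 0.12 for LPS+Pilo (adjusted p = 0.0729). With LPS, Sqstm1 passed in 4 of 16 alternatives, among them median-of-ratios scaling (0.0496) and the fits without Control replicate 1 (0.0403) or LPS replicate 3 (0.0275), over a range of 0.0275 to 0.189. For LPS+Pilo against Control it passed in 5, among them median-of-ratios scaling (0.0427), a fit of only the 2 groups (0.0389) and the fits without LPS replicate 1 (0.0295) or 3 (0.0475), over a range of 0.0295 to 0.200. The interval of LPS+Pilo minus LPS was -0.30 to 0.22.

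Nfe2l2, the gene of NRF2 itself, was at 54.63, 28.47 and 34.81 TPM in Control libraries, 44.43, 43.00 and 28.24 TPM with LPS and 35.86, 32.98 and 31.44 TPM with LPS+Pilo. The groups overlapped, and Control replicate 1 was the highest of all 9 libraries. The 95% interval of LPS minus Control ran from -0.53 to 0.53 and that of LPS+Pilo minus LPS from -0.70 to 0.35 (limma adjusted p = 0.998 and 0.925). The direction with LPS turned positive without Control replicate 1 (0.26) or LPS replicate 3 (0.20).

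Nqo1, the quinone reductase gene often used as a marker of NRF2 activity, was listed at 0.07, 0 and 0.11 TPM in Control libraries, 0.15, 0.29 and 0.21 TPM with LPS and 0.16, 0.41 and 0.36 TPM with LPS+Pilo. The treated libraries were above the Control libraries, as for 11.2% of all tested genes with LPS and 14.9% with LPS+Pilo. It was under the filter and was not tested. The order of the 10 genes by mean level in Control ran from Prdx1 and Sqstm1 through Txnrd1, Nfe2l2, Gsr, Srxn1, Gclm and Gclc to Slc7a11 and Nqo1. Among Txnrd1, Nfe2l2, Gsr and Srxn1, genes next to each other in this order did not differ beyond their spread, at 42.4 ± 8.78, 39.3 ± 13.6, 31.6 ± 6.18 and 29.6 ± 2.3 TPM. In LPS and in LPS+Pilo, Slc7a11 had moved above Gclc in this order, at 8.53 ± 3.44 and 8.10 ± 1.34 TPM in LPS, which did not differ beyond their spread, and at 9.44 ± 0.239 and 7.56 ± 0.288 TPM in LPS+Pilo.

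**Figure D4:**
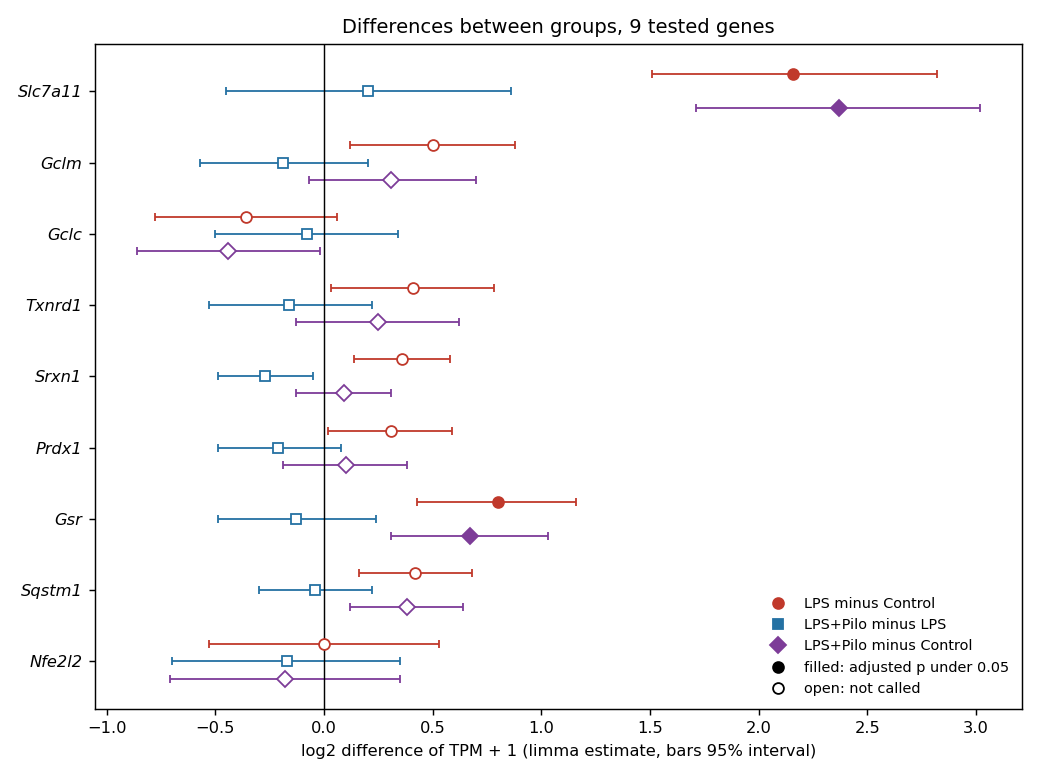
Differences between groups on the log2(TPM + 1) scale (horizontal axis; points are limma estimates, bars 95% intervals) for the 9 tested genes in 3 comparisons; filled points passed at an adjusted p under 0.05. Slc7a11 and Gsr have filled points for both comparisons with Control, and all 9 points of LPS+Pilo minus LPS are open.

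Side by side, the median difference of the 9 tested genes was 0.41 for LPS and 0.25 for LPS+Pilo against Control, where the medians over all genes tested were 0.07 and 0.02. These comparisons share the Control libraries. At an unadjusted p under 0.05, 7 of the 9 were higher with LPS and 0 lower (limma; 12.3% and 10.4% of all genes), and LPS and Control did not overlap for 5 higher and 0 lower (11.2% and 13.1%). Fitted differences were above 0 for 7 of the 9 with LPS (58.9% of all genes) and for 7 in LPS+Pilo against Control (52.9%). In the latter, 3 were higher and 1 lower at an unadjusted p under 0.05 (limma; 11.6% and 12.3% of all genes), and the groups did not overlap for 3 higher and 1 lower (14.9% and 15.6%). For LPS+Pilo minus LPS the median was -0.16 against -0.05 over all genes, and 8 of the 9 differences were below 0, the exception being Slc7a11 (above 0 for 1 of 9 and for 39.7% of all genes). At an unadjusted p under 0.05, 1 gene was lower there, Srxn1, and 0 higher (limma; 3.72% and 3.04% of all genes). The groups did not overlap for 0 higher and 1 lower (5.58% and 6.63% of all genes).

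The library differences ran through these genes. Control replicate 1 was the highest Control library for 8 of the 9 tested genes (62.6% of all genes). LPS replicate 3 was the lowest LPS library for the same 8 (66.3% of all genes), with Prdx1 the opposite in both. LPS+Pilo replicate 1 was the highest of its group for all 9, Prdx1 included (49.7% of all genes). Deviations from the group means were positively correlated for 28 of 36 pairs of genes, up to 0.98 for Txnrd1 with Nfe2l2. The 8 negative pairs were those with Prdx1. These correlations over 9 libraries describe what the libraries share. What these differences between libraries contributed to the values above was not tested beyond leaving each library out.

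Among 15 regulators of NRF2, 13 were tested. With LPS 1 rose and 0 fell, and in LPS+Pilo against Control 1 rose and 1 fell, where 7.76% and 10.2% of all genes passed in either direction. Maff, one of the small MAF partner genes, rose from 13.1 ± 0.331 TPM in Control to 18.7 ± 1.67 in LPS and stood at 20.6 ± 1.69 in LPS+Pilo (differences 0.48 and 0.62; limma adjusted p = 0.0267 and 0.00688). The call with LPS was lost without Control replicate 2 (0.0727) or 3 (0.114) or LPS replicate 1 (0.0971) or 2 (0.0783). It was also lost with only the 2 groups compared (0.0833) and with a replicate block (0.0546), over a range of 0.0196 to 0.114. The other small MAF genes, Mafg (0.21 and 0.10) and Mafk (0.26 and 0.36), and the competing repressor gene Bach1 (0.01 and 0.04) did not pass in either comparison.

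Keap1 was 26.99, 23.57 and 25.06 TPM in Control libraries, 21.06, 19.48 and 19.07 TPM with LPS and 19.11, 15.92 and 17.95 TPM with LPS+Pilo. Every treated library was below every Control library, as for 13.1% of all genes with LPS and 15.6% with LPS+Pilo. Keap1 fell by 0.49 ± 0.11 in LPS+Pilo against Control (limma adjusted p = 0.0183), and its difference with LPS was -0.33 ± 0.11 (adjusted p = 0.103). The first call was lost without Control replicate 1 (0.0508) or 3 (0.0714) or LPS+Pilo replicate 2 (0.0772) or 3 (0.0596), over a range of 0.00493 to 0.0772. With LPS, Keap1 passed under median-of-ratios scaling (0.0256) and quantile normalization (0.0167). The difference between LPS+Pilo and LPS was -0.16 (adjusted p = 0.837). The ratio of Nfe2l2 to Keap1 overlapped between all groups, at 1.54 ± 0.429, 1.93 ± 0.394 and 1.90 ± 0.161.

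Of 25 other genes known as NRF2 targets in some tissues, 19 were tested. With LPS 5 rose (Esd, Blvrb, Fth1, Akr1b8 and Hmox1) and 1 fell (Ephx1). The counts in LPS+Pilo against Control were the same, with Mgst2 in place of Hmox1, and the medians were 0.24 and 0.12. The call of Fth1 was lost under quantile normalization in both comparisons (limma adjusted p = 0.498 and 0.222), and in the second also with no filter (0.0529). Akr1b8 and Mgst2 were not recomputed under the alternatives. Over all genes 4.12% rose and 3.64% fell with LPS, and 4.85% and 5.3% in LPS+Pilo against Control; these shares are also the background of the lists that follow. Esd, which encodes S-formylglutathione hydrolase, rose from 178 ± 8.42 TPM in Control to 486 ± 44.1 in LPS (1.44 ± 0.09; limma adjusted p = 1.63e-05) and was at 491 ± 32.0 in LPS+Pilo. Blvrb, a biliverdin reductase gene, rose by 0.92 ± 0.10 (adjusted p = 0.000583). The epoxide hydrolase gene Ephx1 fell by 1.69 ± 0.13 with LPS, from 21.2 ± 1.34 to 5.88 ± 0.494 TPM.

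Hmox1, the heme oxygenase gene, was 190, 184 and 180 TPM in Control libraries, 253, 219 and 221 TPM with LPS and 176, 184 and 176 TPM with LPS+Pilo. All LPS libraries were above all others. LPS lay above Control without overlap for 11.2% of all genes, and LPS+Pilo below LPS for 6.63%. Hmox1 rose by 0.32 ± 0.08 with LPS (limma adjusted p = 0.0385) and differed by -0.37 ± 0.08 between LPS+Pilo and LPS (adjusted p = 0.318). The call was lost in 10 of 16 alternatives. Adjusted p was 0.111 and 0.153 without Control replicates 2 and 3, 0.109 and 0.0785 without LPS replicates 1 and 2, 0.0598, 0.0597 and 0.0657 without LPS+Pilo replicates 1, 2 and 3, and 0.167 under median-of-ratios scaling, over a range of 0.0304 to 0.167.

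In the glutathione system 11 of 16 genes were tested. With LPS 3 rose (Slc3a2, Ggct and Glrx) and 0 fell. In LPS+Pilo against Control 3 rose (Slc3a2, Chac1 and Glrx) and 0 fell. The call of Ggct with LPS (0.63, limma adjusted p = 0.0211) was lost in 4 of 16 alternatives, over a range of 0.018 to 0.0993. Glrx, which encodes a glutaredoxin, was 28.27, 25.90 and 24.86 TPM in Control libraries, 53.90, 55.41 and 53.60 TPM with LPS and 39.79, 32.83 and 37.94 TPM with LPS+Pilo. LPS lay above LPS+Pilo (as for 6.63% of all genes), and LPS+Pilo above Control (14.9%), with no overlap. Glrx rose by 1.02 ± 0.10 with LPS (limma adjusted p = 0.000255) and by 0.47 ± 0.10 in LPS+Pilo against Control (adjusted p = 0.0154). Its difference between LPS+Pilo and LPS was -0.55 ± 0.10 (adjusted p = 0.212; range over the alternatives 0.0915 to 0.669). The call of LPS+Pilo against Control was lost without Control replicate 3 (0.0736) or LPS+Pilo replicate 1 (0.0652) or 3 (0.0658), over a range of 0.00752 to 0.0736. Chac1, which encodes a glutathione-degrading enzyme, has 1 TGATGCAA match in its promoter window. At least 1 was present in 0.895% of all windows, and the part of this match in the results was not tested. The levels of Chac1 were 6.05 ± 3.99, 15.0 ± 5.87 and 20.7 ± 3.19 TPM in Control, LPS and LPS+Pilo. Chac1 did not pass with LPS (1.25, limma adjusted p = 0.0739). It rose by 1.75 in LPS+Pilo against Control (adjusted p = 0.0154), a call lost in 4 of 16 alternatives, over a range of 0.00143 to 0.0639.

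In the thioredoxin system 15 of 16 genes were tested. With LPS 1 rose (Prdx5) and 1 fell (Sesn1), and in LPS+Pilo against Control 2 rose (Prdx5 and Prdx6) and 2 fell (Sesn1 and Txnip), with medians of 0.07 and 0.01. Prdx5 and Prdx6 encode peroxiredoxins, Sesn1 a sestrin and Txnip an inhibitor of thioredoxin. In LPS+Pilo against Control, Prdx5 and Sesn1 kept their calls in all 16 alternatives, whereas that of Prdx6 (0.36; limma adjusted p = 0.0317) was lost in 7 and that of Txnip (-0.40; adjusted p = 0.0455) in 11. For Prdx6 the losses included leaving out Control replicate 2 or 3, LPS replicate 2 or any LPS+Pilo library (0.0183 to 0.101 over all alternatives). For Txnip they included leaving out any 1 of the 9 libraries (0.0174 to 0.163). The call of Prdx5 with LPS was lost without Control replicate 3 (0.0745) and with only the 2 groups compared (0.0533), over a range of 0.0143 to 0.0745. Txn1, the cytosolic thioredoxin gene, differed by 0.24 with LPS (limma adjusted p = 0.152).

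Of 9 genes of NADPH supply 1 rose (Mthfd2) and 1 fell (Pgls) in both comparisons, with medians of 0.10 and -0.15. The call of Mthfd2, a gene of mitochondrial folate metabolism, was lost in 9 of 16 alternatives with LPS (limma adjusted p = 0.0328, range 0.00543 to 0.123) and in 7 in LPS+Pilo against Control (0.0409, range 0.00518 to 0.135). With LPS these included leaving out Control replicate 2 or 3, LPS replicate 1 or 2, or any LPS+Pilo library, and in LPS+Pilo against Control leaving out Control replicate 2 or 3, LPS replicate 2, or any LPS+Pilo library. Pgls, a gene of the pentose phosphate pathway, lost its call with LPS without Control replicate 3 (0.0551) or LPS replicate 2 (0.0528), over a range of 0.00573 to 0.0551.

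Of 3 tested genes of superoxide dismutation, Sod2, the mitochondrial superoxide dismutase gene and a known NF-kB target, rose by 0.86 ± 0.08 with LPS (limma adjusted p = 0.000182). In LPS+Pilo against Control 1 rose (Sod2) and 1 fell (Ccs, the copper chaperone gene). The call of Ccs (-0.43; adjusted p = 0.0394) was lost in 11 of 16 alternatives, among them leaving out any 1 library except LPS replicate 3 (range 0.02 to 0.128). Among 11 tested partners of p62, 0 rose and 1 fell in each of the 2 comparisons, Map1lc3a with LPS and Gabarap in LPS+Pilo, both genes of autophagosome proteins. Map1lc3a kept its call in all 16 alternatives. That of Gabarap (-0.28; adjusted p = 0.0417) was lost in 11, among them leaving out any 1 of the 9 libraries (range 0.0176 to 0.144).

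In none of these 7 lists did a gene pass between LPS+Pilo and LPS in limma. At an unadjusted p under 0.05 there were 2 higher and 1 lower among the other targets, 2 lower in each of the glutathione and thioredoxin systems and 1 higher among the partners of p62, with 0 in the other lists, where 3.04% of all genes were higher and 3.72% lower. The higher genes were Gstp1 (0.36), Osgin1 (0.38) and Map1lc3a (0.39), with limma adjusted p = 0.383, 0.484 and 0.4. The lower genes were Hmox1 (-0.37), Ggct (-0.34), Glrx (-0.55), Txnip (-0.33) and Msrb1 (-0.21). In each case the groups did not overlap, as for 5.58% of all genes higher and 6.63% lower.

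**Figure D5:**
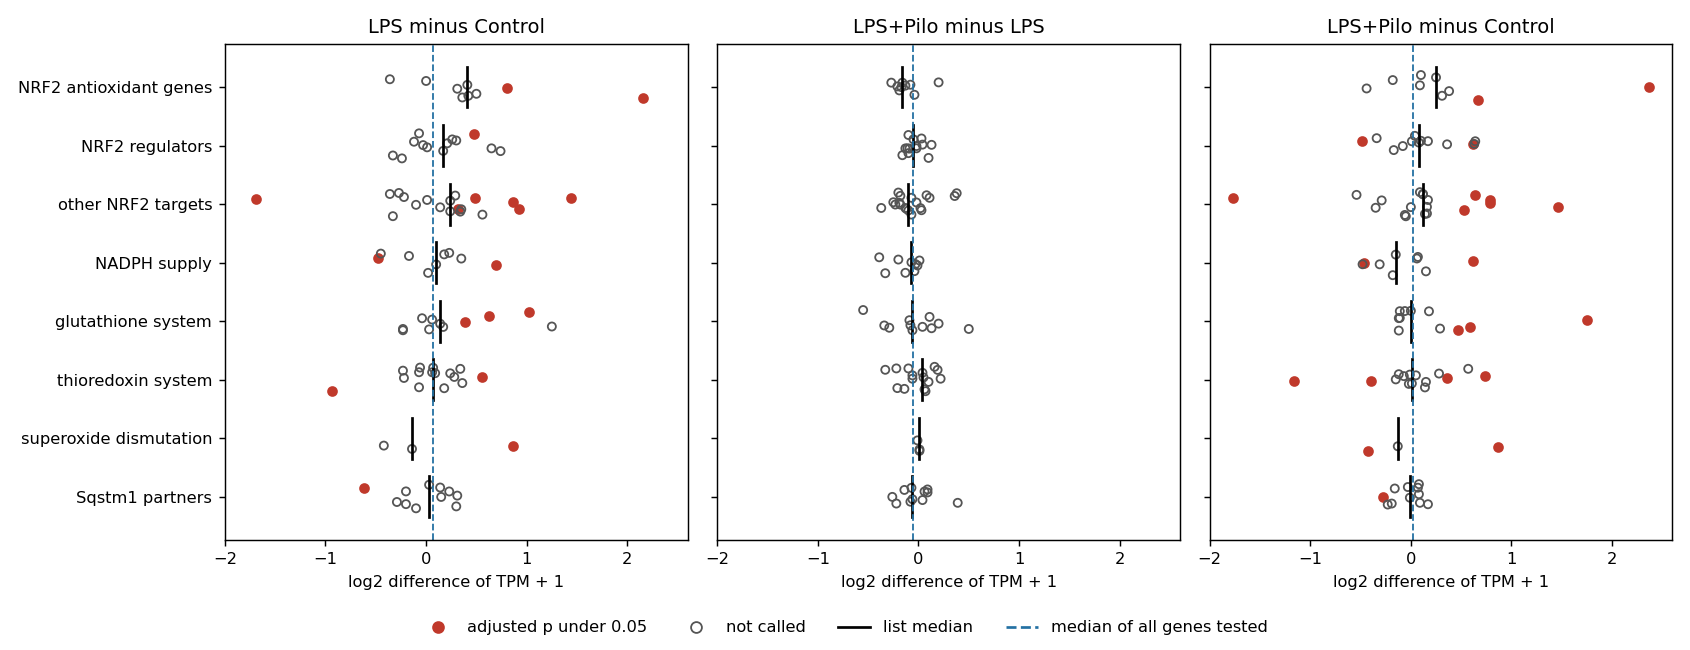
Differences on the log2(TPM + 1) scale (horizontal axes) for tested genes of 8 lists in 3 comparisons; red points passed at an adjusted p under 0.05, open points did not, black lines are list medians and dashed lines the median of all genes tested. The middle panel, LPS+Pilo minus LPS, holds no red point; in the left panel the NRF2 antioxidant genes have a median of 0.41.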

How the data were processed

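The authors deposited a single table of TPM, a column for each of 9 libraries. The submitters' processing notes name fastp (0.19.5), STAR (2.7.1a), DESeq2 (1.24.0) and the build GRCm39. How TPM were computed, with which annotation, strand setting or filter, was not given in the sources used here. TPM hold no counts, so depth is unknown. Precision in the fit of all 9 libraries comes from their spread within groups. Reads of pseudogenes and overlapping genes may be assigned to the wrong gene.

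Symbols came by Ensembl identifier from GENCODE M21 (52081 of 55906 genes). The 11260 genes that reached 1 TPM in 3 or more libraries were fitted on log2(TPM + 1), which understates the change of low genes. The fit used limma 3.58.1 (R 4.3.3), a mean for each group and a variance trend. Tests were two-sided, with Benjamini-Hochberg adjustment over all genes tested and a threshold of 0.05. The fit was tested on simulated data, but no outcome is given here, so nothing is concluded from it about error rates in these libraries. Ratios were compared by exact permutation (Python 3.11.15).

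The 10 genes were always named, with Keap1, Bach1, Mafg, Mafk, Maff, Hmox1, Txn1, Slc3a2 and Sod2. The rule also took up to 4 called genes per list with the largest changes, of which examples are given, and the 5 genes most correlated with Slc7a11. The genes and lists were chosen with earlier results of these data known. Where 1 symbol had 2 identifiers, that with the higher mean was used. The alternatives are those of the closing section.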

Additional observations from a re-analysis of the deposited data

How the results depend on the processing

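The counts of called NRF2 antioxidant genes and the differences of the named genes were recomputed under 16 settings (15 for Bach1, which the filter at 5 TPM removed). Ratios, correlations, list medians and unadjusted counts were not. The settings were median-of-ratios scaling, quantile normalization, a pseudocount of 0.1, no filter, a filter at 5 TPM, a fit of only the 2 groups compared, a replicate block and each of 9 libraries left out. Of the 9 tested NRF2 antioxidant genes, the number that rose with LPS was 2, and it was 3 under median-of-ratios scaling (with Sqstm1), quantile normalization and the filter at 5 TPM (each with Srxn1), 1 with only the 2 groups compared and 1 to 5 with a library left out (5 without Control replicate 1, where Gclm, Sqstm1 and Srxn1 also passed). The number that fell with LPS went from 0 to 1 under quantile normalization (Gclc). In LPS+Pilo against Control the number that rose went from 2 to 3 under median-of-ratios scaling and with only the 2 groups compared (with Sqstm1), to 1 with no filter, and lay at 1 to 3 with a library left out, and the number that fell went from 0 to 1 under median-of-ratios scaling and to 1 under quantile normalization (Gclc). In LPS+Pilo against LPS, 0 passed under each setting. The cause of these changes was not tested. Slc7a11 kept its calls against Control in all 16 settings. Libraries with the same replicate number did not deviate together throughout (correlations of deviations from -0.225 to 0.165), so the numbers were not taken to pair them. With the replicate block 4 of the 9 rose with LPS (Slc7a11, Gsr, Gclm and Sqstm1) and 3 in LPS+Pilo against Control (Slc7a11, Gsr and Sqstm1).

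Differences that turned direction were all of genes that did not pass in that comparison, with either direction. With LPS, Bach1 went to -0.03 under median-of-ratios scaling and -0.08 under quantile normalization, and with a library left out Bach1 ranged from -0.17 to 0.21, Nfe2l2 from -0.20 to 0.26 and Txnip from -0.13 to 0.02. In LPS+Pilo against LPS, median-of-ratios scaling gave 0.03 for Ccs and 0.0043 for Sqstm1, and quantile normalization gave 0.03 for Ccs, 0.0029 for Ephx1, -0.01 for Esd, 0.17 for Fth1 and -0.02 for Pgls. With a library left out, that comparison ranged from -0.13 to 0.43 for Slc7a11, -0.18 to 0.03 for Gclc, -0.14 to 0.08 for Sqstm1, -0.16 to 0.22 for Bach1, -0.22 to 0.0029 for Mafg, -0.07 to 0.09 for Ccs, -0.06 to 0.07 for Esd, -0.21 to 0.05 for Mthfd2, -0.05 to 0.10 for Pgls, -0.00048 to 0.16 for Prdx6 and -0.02 to 0.06 for Sod2. In LPS+Pilo against Control it ranged from -0.14 to 0.20 for Bach1, -0.05 to 0.23 for Mafg, -0.38 to 0.08 for Nfe2l2 and -0.003 to 0.19 for Prdx1. Depth is unknown, and 3 libraries a group limit the precision of each difference to the intervals given.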
